A study of Arabidopsis thaliana with 9 samples.

Results

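AT1G31690 and AT1G31710 are neighbouring genes for copper amine oxidases in Arabidopsis thaliana. They were selected on their measured signals, because both were higher in the ebs mutant than in the shl-2 mutant, so that difference is described and not tested. The pair makes 2 of 13286 genes named on the array, and each gene was measured by 2 probe sets, 4 in all. The samples were complete seedlings of the accession Landsberg erecta, raised on solid MS medium for 18 days with 8 h of light and 16 h of darkness per day. They were wild type (Ler), ebs mutants or shl-2 mutants, the latter also written shl-2-2 in the sample labels, with 3 independent biological pools of plants per genotype and 1 Affymetrix array per pool. The design text describes both mutants as null for expression of EBS or SHL, which encode related chromatin proteins that bind methylated histone tails and hold back flowering. All 3 genotypes shared accession, age, medium and day length, and no treatment was given. Values are log2 signals, so a difference of 1 is a doubling of the signal.

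Copper amine oxidases carry a copper ion and a cofactor made from a tyrosine of the enzyme itself. They oxidise the primary amino groups of polyamines such as putrescine and spermidine, and release an aminoaldehyde, ammonia and hydrogen peroxide. In Arabidopsis they form a small family whose members act in the cell wall space or in peroxisomes, where the hydrogen peroxide serves in wall stiffening, xylem differentiation and stress signalling. AT1G31710 is known in the literature as CuAO2, a peroxisomal enzyme that takes putrescine and spermidine. In the gene order of the RefSeq annotation of TAIR10.1, AT1G31670, AT1G31690 and AT1G31710 follow each other on chromosome 1, with 0 annotated genes between AT1G31670 and AT1G31690 and 0 between AT1G31690 and AT1G31710. All 3 encode copper amine oxidases. Coordinates are left out, since the build behind the probe sets is not stated.

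The median log2 signal of the arrays lay between 6.06 and 6.13, and the number of arrays limits the precision of every value. SHL, named SHL1, read 7.93 ± 0.08 (mean log2 signal ± SD, n = 3) in wild type, 7.90 ± 0.15 in ebs and, lower, 6.96 ± 0.47 in shl-2, and no probe set of EBS was named here. Of the leaf markers listed, 2 of 10 were measured, Rubisco activase (RCA) and the light-harvesting gene LHCB4.1. Their mean log2 signals were at least 13.8 in every genotype. Of the root markers, 2 of 10 were measured, the root hair expansin genes EXPA7 and EXPA18, and 0 of 10 flower markers were. In a complete seedling, fewer cells of a type and less RNA per cell cannot be told apart.

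AT1G31690 was the more strongly shifted gene of the pair. Its brighter probe set, 246603_at, read log2 signals of 5.99, 6.71 and 7.06 on the wild type arrays, 8.84, 9.48 and 8.48 on the ebs arrays and 5.83, 6.22 and 7.40 on the shl-2 arrays. The 3 ebs arrays stood clear of the other 6, with a gap of 1.08 between the lowest ebs array and the highest of the others, whereas wild type and shl-2 arrays overlapped. The means were 6.59 ± 0.55 (SD, n = 3) in wild type, 8.93 ± 0.51 in the ebs mutant and 6.48 ± 0.82 in the shl-2 mutant. The log2 difference between ebs and shl-2, the one used to pick the genes, was 2.45 (moderated SE 0.41), a 5.46-fold higher signal in ebs. It ranked 3 from the highest of 22746 probe sets. The other probe sets of the pair ranked 12 (246573_at), 163 (246601_at) and 978 (246602_at). From wild type, 246603_at differed by 2.35 (SE 0.41) in ebs and by -0.10 (SE 0.41) in shl-2 on the log2 scale. These comparisons each share 3 arrays with the one used for picking, and both use the same wild type arrays, so they are given without a test as well.

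The second probe set of AT1G31690, 246573_at, gave the same order of genotypes at a lower signal. It read log2 signals of 4.18, 4.20 and 4.43 on the wild type arrays, 5.44, 6.17 and 5.50 on the ebs arrays and 3.81, 4.12 and 4.16 on the shl-2 arrays. All shl-2 arrays lay below all wild type arrays here, and all ebs arrays lay above both, by a gap of 1.01. The means were 4.27 ± 0.14 (SD, n = 3), 5.70 ± 0.41 and 4.03 ± 0.19 in wild type, ebs and shl-2. The log2 difference was 1.67 (SE 0.18) between ebs and shl-2, 1.43 (SE 0.18) between ebs and wild type, and -0.24 (SE 0.18) between shl-2 and wild type. Both probe sets thus placed ebs highest, with a larger log2 difference from wild type on the brighter one. The wild type mean of 246573_at was not far above 3.86, the lower quartile of wild type means over all probe sets, so the size of its fold change depends on the background.

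AT1G31710 was shifted less, on arrays that agreed more closely. Its brighter probe set, 246601_at, read log2 signals of 7.84, 7.91 and 7.97 on the wild type arrays, 8.92, 8.82 and 8.70 on the ebs arrays and 8.10, 8.13 and 7.99 on the shl-2 arrays. The ebs arrays again lay above the other 6, by a gap of 0.57, and the shl-2 arrays lay just above the wild type arrays without overlap. The means were 7.91 ± 0.07 (SD, n = 3) in wild type, 8.81 ± 0.11 in the ebs mutant and 8.07 ± 0.07 in the shl-2 mutant. The log2 difference between ebs and shl-2 was 0.74 (SE 0.08), a 1.67-fold higher signal in ebs. The log2 differences from wild type were 0.91 (SE 0.08) in ebs and 0.17 (SE 0.08) in shl-2.

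The second probe set of AT1G31710, 246602_at, was dim and moved little. It read log2 signals of 4.07, 3.86 and 4.04 on the wild type arrays, 4.20, 4.09 and 4.33 on the ebs arrays and 3.93, 3.83 and 3.91 on the shl-2 arrays. The ebs arrays were still the highest, but the lowest of them exceeded the highest wild type array by 0.02, and wild type and shl-2 overlapped. The log2 difference was 0.32 (SE 0.09) between ebs and shl-2, 0.22 (SE 0.09) between ebs and wild type, and -0.10 (SE 0.09) between shl-2 and wild type. The 2 probe sets of AT1G31710 therefore differed in the size of the ebs difference and in the sign of the small shl-2 difference. Where either probe set lies on the transcript was not analysed here. The wild type mean of 246602_at, 3.99 ± 0.11 (SD, n = 3), also lay close to the lower quartile of all probe sets.

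**Figure D1:**
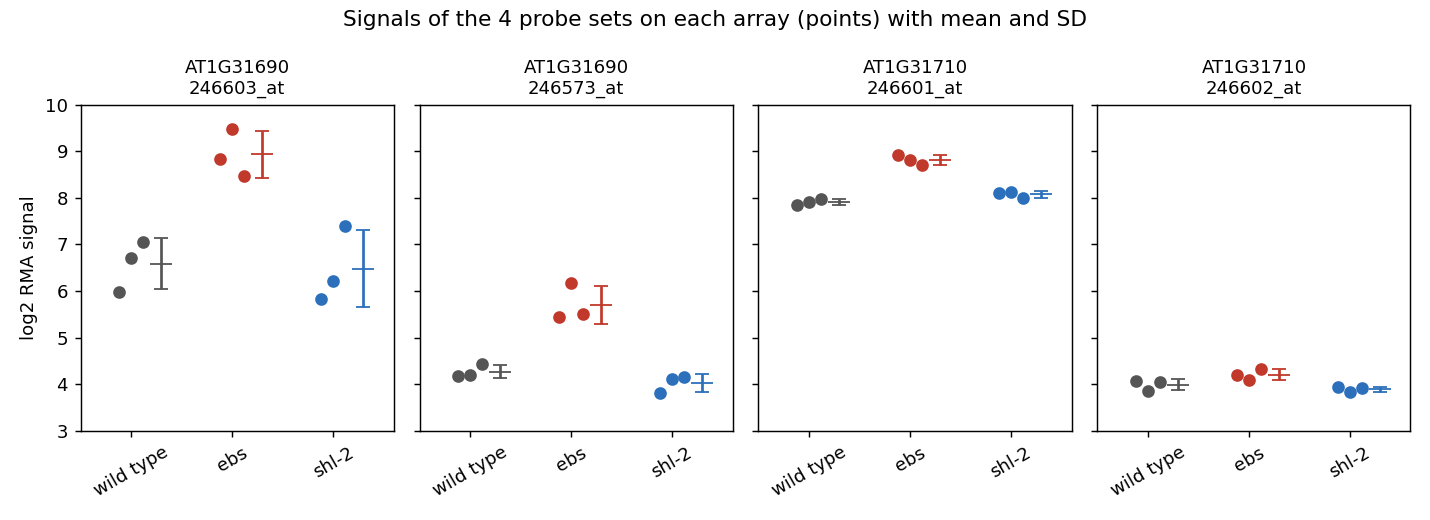
Log2 RMA signals (y axis) of the 4 probe sets of AT1G31690 and AT1G31710 on the 3 wild type, 3 ebs and 3 shl-2 arrays. Points are arrays, and the bars beside them give mean and SD (n = 3). The ebs arrays are highest in every panel, by 1.08, 1.01, 0.57 and 0.02 above the highest other array, from left to right.

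In all 4 probe sets the 3 ebs arrays exceeded the other 6, a pattern held by 464 of 22746 probe sets, 2.04%; since the genes were picked for part of it, nothing is read from this count. The spread within genotypes differed between the genes. The pooled within-genotype SD was 0.64 for 246603_at, larger than in 99.3% of probe sets, and 0.27 for 246573_at. It was 0.09 for 246601_at and 0.10 for 246602_at, below the median of all probe sets, 0.12. AT1G31690 thus varied more between pools of the same genotype than AT1G31710, and its larger differences carry larger errors. Both probe sets of AT1G31690 placed array 2 highest within ebs, and array 1 lowest and array 3 highest within wild type and within shl-2. For AT1G31710 the brighter probe set placed array 1 highest and array 3 lowest within ebs, and array 2 highest and array 3 lowest within shl-2. Within wild type it placed array 1 lowest and array 3 highest, as AT1G31690 did. The dimmer probe set, 246602_at, placed array 2 lowest within every genotype and array 1 highest within wild type. The order of the pools within wild type was thus not shared by all 4 probe sets. These small differences between pools were not tested.

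With equal group sizes, the mean of ebs and shl-2 is uncorrelated with their difference, though both use the same estimate of spread. The picking rule does not name the comparison of that mean with wild type, which was tested. AT1G31710 passed it on 246601_at, where the mutant mean exceeded wild type by a log2 difference of 0.54 (SE 0.07, 95% interval 0.38 to 0.69, limma adjusted p = 0.0022). Over all probe sets 2.65% were called higher in this comparison. The mean of 246601_at averages log2 differences of 0.91 in ebs and 0.17 in shl-2, so its passing does not show a shift in each mutant. AT1G31690 did not pass: the log2 difference was 1.12 (SE 0.35, limma adjusted p = 0.104) on 246603_at and 0.60 (SE 0.16, limma adjusted p = 0.0558) on 246573_at. The latter passed in 4 of 16 alternatives: with the replicate number as a block (limma adjusted p = 0.0345), with dim probe sets left out (0.0473), with robust variances (0.0478) or without ebs array 2 (0.0257). In the others it did not pass, with a limma adjusted p of up to 0.186, without wild type array 2. For 246602_at the log2 difference was 0.06 (SE 0.08, limma adjusted p = 0.737). The arrays of this comparison include the ebs and shl-2 arrays on which the genes were picked. The pair was also chosen with earlier results of these data known, so these p-values are no independent support for a difference.

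The other measured copper amine oxidase genes were compared between the genotypes as well. Of 10 family members listed, 7 were measured, 5 besides the pair, each by 1 probe set. Of these 5, 0 passed limma's test in ebs against wild type (3.19% of all probe sets were called), 0 in shl-2 against wild type (5.43% called) and 0 between ebs and shl-2 (0.769% called). Their log2 differences between ebs and shl-2 ran from -0.17 to 0.14, with a median of -0.12, beside a median of 0.00 over all probe sets. At an unadjusted p under 0.05, 2 of the 5 differed in ebs, 2 in shl-2 and 0 between the mutants, beside 16.9%, 18.7% and 10.7% of all probe sets. The pair was picked for being higher in ebs than in shl-2, and these 5 genes were not. From wild type to ebs, the log2 difference of 246602_at (0.22) lay within the range of the 5 genes, -0.41 to 0.39. Nothing particular to the pair is therefore read from this.

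AT1G31670, the third gene of the row on chromosome 1, read log2 signals of 4.19, 4.36 and 4.36 on the wild type arrays, 4.47, 4.29 and 4.36 on the ebs arrays and 4.58, 4.36 and 4.04 on the shl-2 arrays. The genotypes overlapped throughout. Its log2 difference between ebs and wild type was 0.07 (SE 0.13, limma adjusted p = 0.839), with a 95% interval of -0.21 to 0.35, and that between ebs and shl-2 was 0.05 (95% interval -0.23 to 0.33, limma adjusted p = 0.943). These intervals lie below the ebs differences of AT1G31690 and of the brighter probe set of AT1G31710. They hold those of the dimmer probe set, 246602_at, 0.22 from wild type and 0.32 from shl-2. The pair was picked for being higher in ebs than in shl-2, and AT1G31670 was not. The difference between the genes was not tested. AT1G31670 was also dim, so a change in a low signal could be understated.

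CuAO1 (AT1G62810), which encodes a secreted enzyme of the cell wall space, read log2 signals of 6.36, 6.07 and 6.43 on the wild type arrays, 6.51, 6.61 and 6.90 on the ebs arrays and 7.04, 6.67 and 6.67 on the shl-2 arrays. All 6 mutant arrays lay above the wild type arrays. The log2 differences from wild type were 0.39 (SE 0.14, limma adjusted p = 0.196) in ebs and 0.51 (SE 0.14, limma adjusted p = 0.0734) in shl-2, neither of which passed. AT3G43670, another family member, had log2 differences from wild type of 0.28 (limma adjusted p = 0.341) in ebs and 0.42 (limma adjusted p = 0.12) in shl-2. For these genes the higher estimate was that of shl-2, the reverse of the order in the neighbouring pair. The log2 difference between ebs and shl-2 was -0.12 for CuAO1 (95% interval -0.44 to 0.20) and -0.14 for AT3G43670 (-0.45 to 0.16), so no difference between the mutants was shown for either.

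AT2G42490, which encodes a peroxisomal copper amine oxidase, had lower estimates in both mutants. It read log2 signals of 8.91, 8.72 and 8.93 on the wild type arrays, 8.44, 8.52 and 8.38 on the ebs arrays and 8.75, 8.76 and 8.35 on the shl-2 arrays. The ebs arrays lay below all wild type arrays, and the shl-2 arrays overlapped with both groups. The log2 difference from wild type was -0.41 (SE 0.12, limma adjusted p = 0.0971) in ebs and -0.23 (SE 0.12, limma adjusted p = 0.321) in shl-2. AT4G12270 was dim, with log2 signals from 3.56 to 4.08 over the 9 arrays, and did not pass (lowest limma adjusted p = 0.725 in the 3 comparisons).

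**Figure D2:**
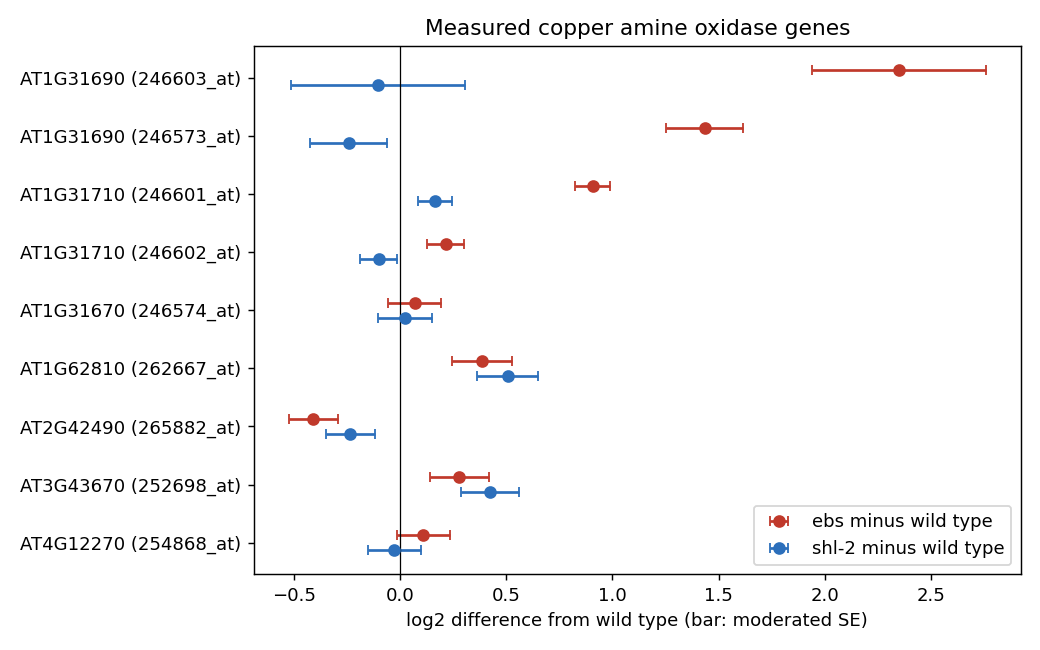
Log2 difference from wild type (x axis) in ebs (red) and shl-2 (blue) for every probe set that names 1 copper amine oxidase gene. Bars are moderated SEs from the fit to all 9 arrays. AT1G31690 and the brighter probe set of AT1G31710 reach 0.91 to 2.35 in ebs. The 5 other family genes lie between -0.41 and 0.39 in ebs and between -0.23 and 0.51 in shl-2. The dimmer probe set of AT1G31710, 246602_at, lies at 0.22 in ebs, within the range of the 5.

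The genes around the pair were examined in their order on chromosome 1, taking the 10 nearest measured genes on each side. They reach 17 annotated genes away on the side of AT1G31670 and 29 on the other. None of the 20 passed limma's test with adjustment over all probe sets, in ebs, in shl-2 or between the mutants. Of all probe sets, 3.19%, 5.43% and 0.769% were called in these comparisons. At such shares few or no calls are expected among 20 genes, so nothing is read from their absence. At an unadjusted p under 0.05 there were 3 of 20 in ebs, 1 in shl-2 and 3 between the mutants, beside 16.9%, 18.7% and 10.7% of all probe sets. Median log2 differences over the 20 were 0.03 in ebs, -0.02 in shl-2 and 0.03 between ebs and shl-2, beside -0.02, -0.03 and 0.00 over all probe sets.

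On the far side of AT1G31710, AT1G31720 read log2 signals of 4.32, 4.45 and 4.69 in wild type and 4.51, 4.42 and 4.48 in ebs, a log2 difference of -0.02 (limma adjusted p = 0.961). Next to it AT1G31730, which encodes a subunit of an adaptor complex of vesicle transport, had a log2 difference of -0.24 in ebs (limma adjusted p = 0.256), the lowest of the 20 genes. The ebs differences of the bordering genes AT1G31670 and AT1G31720 were smaller than those of both AT1G31690 probe sets and of 246601_at. The pair was picked for being high in ebs and its neighbours were not, both bordering genes were dim, and 246602_at (0.22) lay within the range of the neighbours, so nothing particular to the pair is read from this. On the side of AT1G31670 the next measured gene was the MADS-box gene AGL92 (AT1G31640), with a log2 difference of -0.13 in ebs (limma adjusted p = 0.62). The highest estimate among the 20 was that of ECS1 (AT1G31580), which encodes a cell wall protein. ECS1 read log2 signals of 7.44, 6.66 and 6.72 on the wild type arrays, 7.86, 7.22 and 7.74 on the ebs arrays and 7.27, 6.97 and 7.07 on the shl-2 arrays. Wild type array 1 overlapped with the ebs arrays, and the log2 difference of 0.67 (SE 0.22) did not pass (limma adjusted p = 0.144), although it did without wild type array 1 (limma adjusted p = 0.0296).

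**Figure D3:**
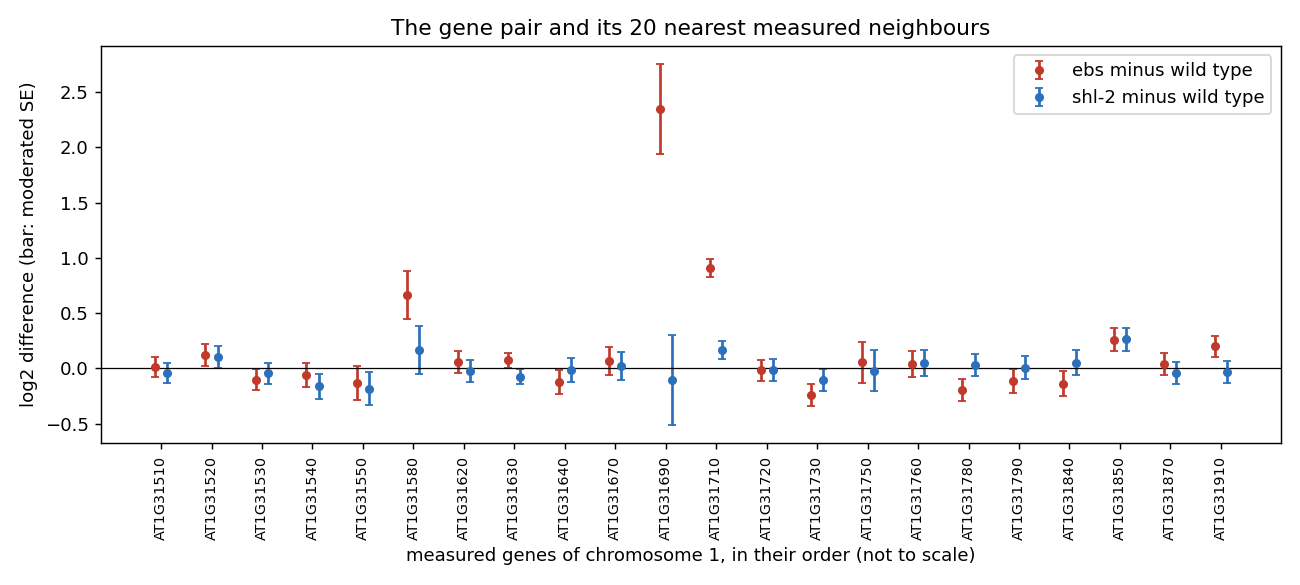
Log2 difference from wild type (y axis) in ebs (red) and shl-2 (blue) for AT1G31690, AT1G31710 and the 10 nearest measured genes on each side, in gene order (x axis, not to scale), with moderated SEs. The brighter probe set stands for each gene. The pair stands at 2.35 and 0.91 in ebs, and the 20 neighbours lie between -0.24 and 0.67.

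The steps before and after these enzymes could be followed in part, since 17 of the 90 genes in 9 lists had a named probe set. Of the genes for polyamine synthesis 3 of 12 were measured, and 1 was lower in ebs and in shl-2. Over all probe sets, 3.19% were called in ebs and 5.43% in shl-2, in either direction, so nothing about the list is read from 1 call. The called gene was AT5G15950, which encodes an S-adenosylmethionine decarboxylase, the enzyme that supplies the aminopropyl groups of spermidine and spermine. It read log2 signals of 7.95, 8.43 and 8.15 on the wild type arrays, 7.24, 7.57 and 7.23 on the ebs arrays and 7.06, 7.25 and 6.95 on the shl-2 arrays. All 6 mutant arrays lay below the wild type arrays. AT5G15950 fell by 0.83 on the log2 scale in ebs (SE 0.14, limma adjusted p = 0.0129) and by 1.09 in shl-2 (SE 0.14, limma adjusted p = 0.00193). The log2 difference between ebs and shl-2 was 0.26 (95% interval -0.05 to 0.57, limma adjusted p = 0.573). AT5G15950 was thus lower in both mutants. On the brighter probe set of AT1G31690 the ebs arrays stood apart and the shl-2 and wild type arrays overlapped. On its dimmer probe set, 246573_at, the shl-2 arrays lay below the wild type arrays. AT1G31690 was picked for being higher in ebs than in shl-2 and AT5G15950 was not, so nothing is read from this contrast. The ebs call of AT5G15950 ended without wild type array 2 (limma adjusted p = 0.0503), ebs array 1 (0.0644) or ebs array 3 (0.0592).

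The other 2 measured genes of polyamine synthesis also encode S-adenosylmethionine decarboxylases. SAMDC (AT3G02470) had log2 differences from wild type of 0.09 (limma adjusted p = 0.732) in ebs and 0.12 (limma adjusted p = 0.609) in shl-2, and AT3G25570 had -0.10 (0.735) and -0.18 (0.466). Neither passed, so 1 of the 3 decarboxylase genes measured was lower. No polyamine oxidase gene of the 5 listed and no catalase or ascorbate peroxidase gene of the 7 listed had a named probe set, so these routes were not analysed here. The aminoaldehyde dehydrogenase genes ALDH10A8 and ALDH10A9, whose enzymes can oxidise the aldehydes that copper amine oxidases release, were the 2 measured of 6 genes listed around GABA. Their log2 differences from wild type lay between -0.04 and 0.09, and they did not pass in either mutant. Of 20 copper homeostasis genes the 1 measured was CCS, the copper chaperone of superoxide dismutase, with log2 differences of -0.34 (limma adjusted p = 0.322) in ebs and -0.21 (limma adjusted p = 0.544) in shl-2.

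The root markers had slightly higher estimates in ebs, as the pair had. EXPA18 read log2 signals of 5.42, 5.22 and 5.23 on the wild type arrays, 5.52, 5.59 and 5.48 on the ebs arrays and 5.33, 5.26 and 5.42 on the shl-2 arrays. All ebs arrays lay above the other 6, as they did for 2.04% of all probe sets. For EXPA7 the groups overlapped, with log2 signals of 4.61, 4.76 and 4.39 in ebs and 4.46, 4.16 and 4.55 in wild type. The log2 difference between ebs and wild type was 0.24 for EXPA18 (SE 0.08, limma adjusted p = 0.158) and 0.20 for EXPA7 (SE 0.13, limma adjusted p = 0.5), and neither passed. The summed signal of both genes ranged on the log2 scale from 5.79 to 6.02 in wild type, from 6.04 to 6.23 in ebs and from 5.93 to 5.96 in shl-2. These root marker differences are smaller than those of AT1G31690 and of 246601_at, and their part in the result was not tested. The summed signal of the 2 leaf markers lay between 15.1 and 15.2 on the log2 scale in every genotype. RCA read 14.34 on every ebs and shl-2 array, so a difference may not be visible at this signal, and leaf content is not read from the sum.

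Each gene was also set against all other single-gene probe sets for likeness of pattern, by Pearson's correlation of log2 signals over the 9 arrays, among 13434 probe sets. The arrays share their genotypes, so any gene that is high in ebs scores well, and the values are a description. For AT1G31690 the most alike were AT3G05730 (r = 0.975), which encodes a defensin-like peptide, the zinc finger gene IDD16 (AT1G25250, r = 0.972), AT4G39590 (r = 0.968), AT4G15390 (r = 0.965), which encodes an acyltransferase, and AT3G45160 (r = 0.963). Their log2 differences between ebs and wild type, 0.49 to 1.09, were smaller than that of AT1G31690. Within shl-2, AT3G05730 read log2 signals of 9.28, 9.47 and 10.19, so that array 3 was highest for both genes. Within ebs and within wild type the highest array differed: AT3G05730 was highest on ebs array 1 (10.85) and wild type array 2 (9.91), and AT1G31690 on ebs array 2 and wild type array 3.

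For AT1G31710 the most alike were AT2G07140 (r = 0.976), AT5G66970 (r = 0.971), AT4G00390 (r = 0.970), which encodes a storekeeper-related DNA-binding protein, AT2G20620 (r = 0.970) and AT3G18330 (r = 0.968). Their log2 differences between ebs and wild type, 1.19 to 2.94, were larger than the 0.91 of AT1G31710. The probe sets of AT2G07140 and AT3G18330 are of types that can also detect similar transcripts. The 2 neighbours correlated with each other at r = 0.876, which placed AT1G31710 at rank 69 for AT1G31690 and AT1G31690 at rank 65 for AT1G31710. The 5 most alike genes of each lay elsewhere in the genome, and none was common to both. Both neighbours were picked for being higher in ebs than in shl-2. Ranks among genes high in ebs also depend on the spread within genotypes, which was wide for AT1G31690. How often 2 such lists would share a gene by chance was not computed. Nothing about the pair is therefore read from these ranks.

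**Figure D4:**
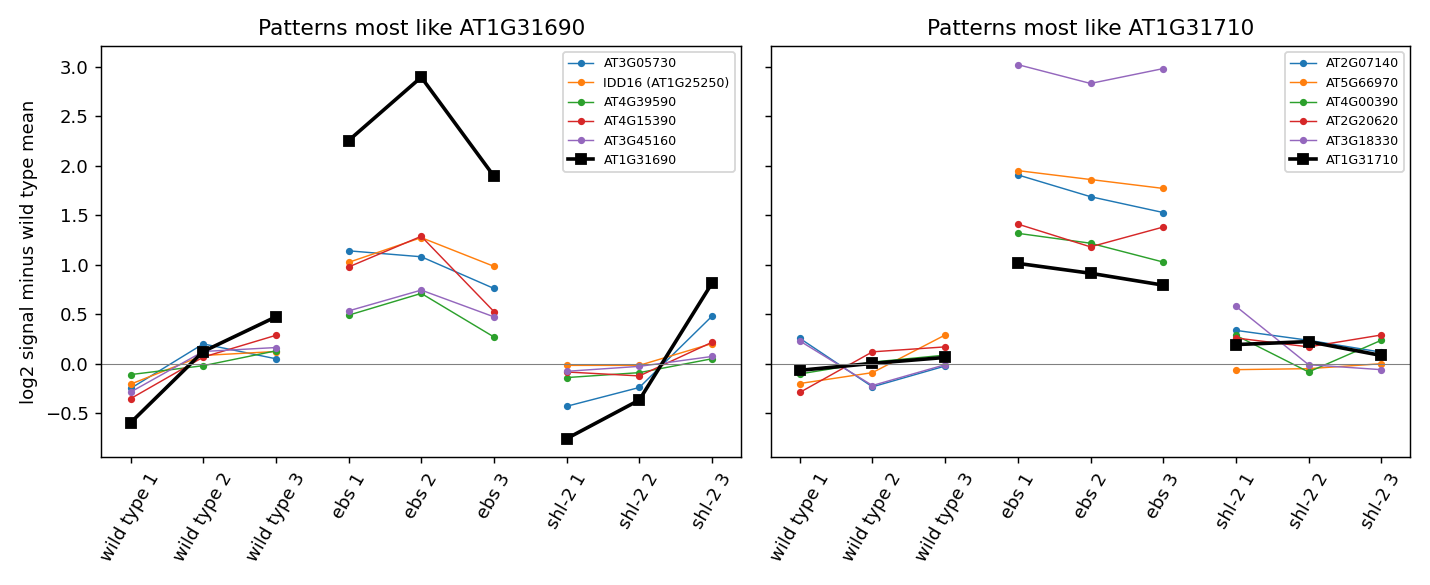
Log2 signal minus the wild type mean (y axis) on each of the 9 arrays (x axis) for AT1G31690 and AT1G31710 (black squares) and the 5 genes with the highest correlation to each (coloured points). Lines only join the points of a gene within a genotype. The ebs arrays are high in all 12 genes, and AT1G31690 spreads more within each genotype than AT1G31710.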

How the data were processed

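The authors deposited log2 signals per probe set from Affymetrix arrays, which the submitters' processing notes credit to RMA and affy; per the labels' protocols, biotin-labelled cRNA came from 500 ng of total RNA. RMA corrects background, equalises the distributions of the arrays and summarises probes, which can understate differences of dim probe sets. The versions of RMA and affy are not stated in the labels, and no scanner files were used. Of 22810 probe sets, 64 controls were left out and 22746 tested without a filter. Of these, 13513 named 1 gene, 503 several and 8730 were unnamed here; 13436 matched RefSeq names (TAIR10.1) through Entrez identifiers, covering 13286 genes. For a gene with several probe sets the one with the highest mean stood for it, apart from the pair, where both are given.

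With limma, genotype means were estimated from all 9 arrays together (version 3.58.1, R 4.3.3; lmFit, contrasts.fit, eBayes). Tests were two-sided, adjusted by Benjamini-Hochberg over 22746 probe sets, with calls at an adjusted p under 0.05, and the code was tested on simulated data. No 2 arrays held identical values (0 pairs).

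The pair and the lists (copper amine oxidases, polyamine oxidases, polyamine synthesis, GABA and aminoaldehydes, peroxide removal, copper homeostasis, leaf, root and flower markers) were chosen with earlier results of these data known. Genes were named by rule: the pair, all measured family genes, SHL, the 2 nearest genes on each side and any called among 10, called list members with up to 2 others, and the 5 most alike patterns per gene; ECS1 was named after its values were seen. No protein or promoter sequence was used here. Alternatives were a replicate block, median centring, repeated quantile normalization, removal of the dimmest 30%, trended or robust variances, array weights, fits of only the compared groups, and leaving out each array.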

Additional observations from a re-analysis of the deposited data

How the results depend on the processing

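Across 17 alternatives (9 that leave out an array and 8 others), the pairwise differences of the 4 probe sets moved by less than 1 within-genotype SD in all 201 values computed. Many of these values could not move. The replicate block, trended or robust variances, removal of dim probe sets and fits of only the compared groups leave the differences unchanged. So does leaving out an array of the genotype not compared. The SD of 246603_at, 0.64, also allowed wide moves, so the count is no measure of stability. 246602_at has no value with the dimmest 30% left out. For ebs minus shl-2 the log2 differences ranged from 2.12 to 2.91 for 246603_at, 1.44 to 1.81 for 246573_at, 0.69 to 0.80 for 246601_at and 0.26 to 0.38 for 246602_at. The shl-2 difference from wild type of 246603_at ranged from -0.56 to 0.22, so its sign depended on single arrays. For both mutants together against wild type, 246601_at passed under every alternative run (limma adjusted p from 0.00137 to 0.016). On 246573_at the log2 difference of 0.60 passed with the replicate block (limma adjusted p = 0.0345), with the dimmest 30% left out (0.0473) and with robust variances (0.0478). Leaving out single arrays gave log2 differences of 0.48 to 0.68, and it passed without ebs array 2 (0.0257). These were 4 of 16 alternatives, and in the others 246573_at did not pass (limma adjusted p of up to 0.186, without wild type array 2). Without single arrays, 0 to 2 list genes were called in ebs and 1 to 2 in shl-2, and 0 to 1 flanking genes in ebs. AT2G42490 passed in ebs without shl-2 array 3 (limma adjusted p = 0.0307), and AT3G43670 in shl-2 without wild type array 1 (0.0462). With the replicate block 1 flanking gene, ECS1, was called in ebs (limma adjusted p = 0.0269). The causes were not tested. Same-numbered arrays had correlated deviations of -0.29 to 0.46, over 0.1 in 7 of 9 pairs; wild type and shl-2 arrays reached it in all 3 pairs (0.171 to 0.405), the comparisons with ebs did not, so the numbers are not treated as pairs. The block changed no call in shl-2 against wild type, and beyond those given it changed no call reported here. A dim probe set near background has an uncertain fold change.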
